A study of Mus musculus with 40 samples.

Results

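The 4-cell mouse embryos described here carried Snrpn transcripts and came from zygotes injected with siRNA against Rif1 (siRif1) or with control siRNA (siCon). The counts do not tell the parental alleles apart. Embryos were selected on their Snrpn level, and an embryo was kept where Snrpn (ENSMUSG00000102252, chr7:59982495-60140219, minus strand, GRCm38) reached 10 CPM (counts scaled to the library's total of mouse gene counts). That minimum kept 18 of the 20 embryos of the 4-cell stage, out of 40 embryos in the series: 13 of 13 siRif1 embryos and 5 of 7 siCon embryos. The embryos left out were siCon 3 and siCon 7. Both were controls, so the choice changed the comparison through its reference side alone, and Snrpn itself and the other paternally expressed imprinted genes are given below as a description with no test.

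All embryos had (C57BL/6J xCBA) mothers crossed with DBA/2J fathers. The number in the paternal strain label increased by 1 with each library, so the strain was read from the first of them. Zygotes freed of cumulus cells received 20 µM siRif1 or siCon 17 to 18 h after hCG and were cultured in KSOM, and 4-cell embryos were collected at 63 h. Each whole embryo gave 1 SMART-seq2 library, with full-length cDNA, no strand information and no molecular identifiers, so counting errors apply to reads and not to molecules. The 20 embryos of the 8-cell stage, 12 siRif1 and 8 siCon collected at 70 h, entered the model and serve as a second time point. No label ties an embryo to a litter or an injection day, so p-values measure the spread between these embryos, which may share both.

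Rif1 is a large chromatin protein that brings protein phosphatase 1 to DNA. The phosphatase counteracts the DDK kinase at replication origins and so holds back late origins. Rif1 also acts below 53BP1 in the choice between double-strand break repair pathways, and in mouse embryonic stem cells it helps to silence 2-cell genes and endogenous retroviruses. Snrpn lies in an imprinted domain on mouse chromosome 7 that is methylated on the maternal allele, so that normal embryos transcribe the paternal copy. At the 4-cell stage the mouse embryo has passed major genome activation and has cleared much of its oocyte mRNA.

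The kept siRif1 libraries held 704863 to 8890551 mouse gene counts and the kept siCon libraries 2396168 to 3391953. None of 6 library measures passed an exact two-sided permutation test between the groups, and the Benjamini-Hochberg adjusted p was 0.987 for each. The log2 ratio of mouse gene to ERCC spike-in counts, a measure of RNA per embryo, was 5.00 ± 0.54 in 13 siRif1 embryos and 5.05 ± 0.78 in 5 siCon embryos (SD, exact permutation p = 0.885). That difference of -0.05 rested on siCon 5, and without it the difference was -0.39 (exact permutation p = 0.187). In whole embryos, fewer cells and less RNA per cell cannot be told apart. siCon 5 stood apart among the kept controls, with 7.18% ERCC counts and 7.65% mitochondrial counts, and results that rest on it are marked below. All 12 markers of cleavage embryos had counts, led by Dppa3 at 1945 to 2935 CPM in siRif1 and 1196 to 2901 CPM in siCon embryos. The median was below 1 CPM for 1 of the 12. Eomes was the lowest, with medians of 0 CPM in siRif1 and 1.38 CPM in siCon embryos. Of 16 cumulus and granulosa markers, 12 had median levels below 1 CPM, and Has2, Ptx3, Fshr, Inhba and Lhcgr were at 0 in every embryo. Their summed level of 196 to 291 CPM in siRif1 and 198 to 423 CPM in siCon embryos was carried by Nr5a2 and Amhr2.

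Snrpn separated the 2 left-out controls from every other 4-cell embryo. In siRif1 embryos it ran from 34.6 CPM in siRif1 7, the embryo just inside the minimum, to 94.4 CPM. In kept siCon embryos it was 71.0, 65.5, 50.2, 63.0 and 60.1 CPM, and in the embryos just outside the minimum it was 1.17 CPM in siCon 3 and 2.89 CPM in siCon 7. No embryo lay between 2.89 and 34.6 CPM, so minima of 5 and 20 CPM kept the same embryos. At the 8-cell stage all embryos had 43.8 to 104 CPM.

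Other paternally expressed imprinted genes were low in the same 2 controls. Summed over 31 such genes, without Snrpn and Snurf, which share a transcript, the level scaled by trimmed mean of M values (TMM) was 256 to 563 CPM in siRif1 embryos and 226 to 423 CPM in kept siCon embryos, and 96.5 CPM in siCon 3 and 146 CPM in siCon 7. Gab1, which encodes an adaptor of receptor tyrosine kinases and is imprinted through maternal H3K27me3, had 18.3, 47.3 and 61.6 CPM as the lowest, median and highest value in siRif1 embryos. In kept siCon embryos it had 47.6, 50.8, 34.1, 17.5 and 35.4 CPM, against 1.22 and 0 CPM in the left-out controls. Impact, a regulator of the translational kinase Gcn2, had 21.1, 43.9 and 91.8 CPM in siRif1 embryos and 25.8 to 62.9 CPM in kept siCon embryos, against 4.64 and 14.0 CPM. The summed level of maternally expressed imprinted genes was also lowest in these 2 controls, at 619 CPM in siCon 3 and 522 CPM in siCon 7. That sum was 706 to 980 CPM in siRif1 and 737 to 1081 CPM in kept siCon embryos. Not every paternally expressed gene was low in both left-out controls. Mest was at 7.28 CPM in siCon 7, inside the kept siCon range of 4.05 to 16.7 CPM, and Jade1 was at 83.4 CPM there, above the kept siCon embryos, whose highest value was 60.2 CPM. The single imprinted genes in this paragraph were chosen after their values were seen.

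**Figure D1:**
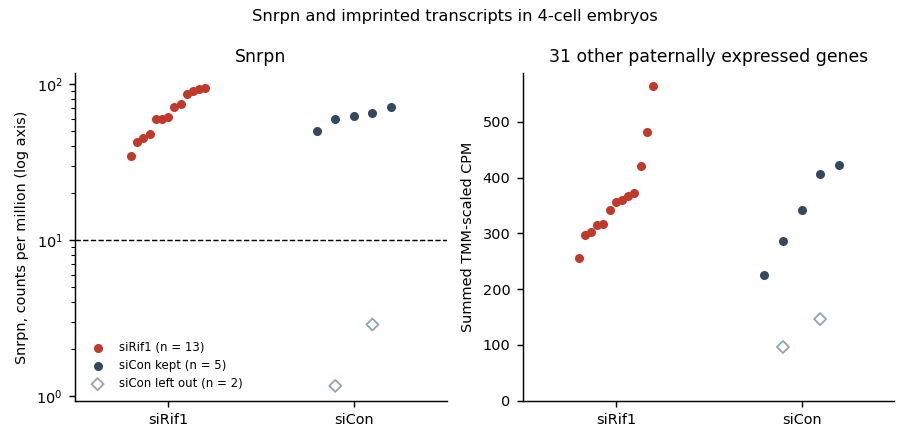
Snrpn in CPM on a log axis (left, dashed line at the minimum of 10 CPM) and the summed TMM-scaled CPM of 31 other paternally expressed imprinted genes (right) in 4-cell embryos, where each point is 1 embryo. The 13 siRif1 and 5 kept siCon embryos overlap in both panels, and the 2 left-out siCon embryos lie below all of them.

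Rif1 (ENSMUSG00000036202, chr2:52072832-52122383, plus strand) was examined first, as the siRNA target. In siRif1 embryos its lowest, median and highest TMM-scaled levels were 88.3, 149 and 381 CPM, and in siCon 1, 2, 4, 5 and 6 they were 568, 302, 344, 533 and 518 CPM. The siRif1 mean of 178 ± 94.5 CPM was 39.3% of the siCon mean of 453 ± 121 CPM (SD). In 11 of 13 siRif1 embryos Rif1 was below every kept control, and siRif1 7 and siRif1 10, at 349 and 381 CPM, lay inside the siCon range. An exact two-sided permutation test on these 18 embryos gave p = 0.00070 for Rif1 alone, over 8568 splits. In edgeR's quasi-likelihood test across 12223 genes, siRif1 over siCon was at -1.35 on the log2 fold change scale (standard error, SE, 0.27), and the Benjamini-Hochberg adjusted p of 0.0508 missed the threshold of 0.05. Without siRif1 6, siRif1 7 or siRif1 10 it passed, at -1.38, -1.47 and -1.50 with edgeR adjusted p of 0.0354, 0.00515 and 0.00448. The left-out controls had 365 and 367 CPM of Rif1, inside the range of the kept ones.

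At the 8-cell stage the log2 fold change of Rif1 was -0.51, with means of 220 ± 92.9 CPM in 12 siRif1 embryos and 314 ± 42.6 CPM in 8 siCon embryos (SD). For Rif1 the 8-cell difference minus the 4-cell difference was 0.83 (SE 0.37, unadjusted p 0.028, edgeR adjusted p 0.898), so the 2 stages were not shown to differ.

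Across the transcriptome, 1 of 12223 genes tested passed an adjusted p of 0.05, which is 0.00818% of them. That gene rose and none fell. An unadjusted p below 0.05 was found for 868 genes (7.10%), 554 higher in siRif1 embryos (4.53%) and 314 lower (2.57%). The higher ones had a median mean level of 3.03 on the log2 CPM scale and the lower ones 5.59, against 3.72 over all genes tested. With ERCC totals in place of TMM these counts were 267 higher and 59 lower, so the share of higher genes was 81.9% in place of 63.8%. By limma-voom they were 510 higher and 535 lower, a share of 48.8%, and with no Snrpn minimum 515 higher and 805 lower, a share of 39.0%. The excess of higher genes was thus absent with limma-voom and turned round with all 20 embryos. DESeq2 called 45 genes on the same embryos, 38 higher (0.311%) and 7 lower (0.0573%), each with the same sign in edgeR, where their adjusted p ran up to 0.294. limma-voom called 4, with Gpr137b and Cmtm7 higher (0.0164%) and Rif1 and H2afx lower (0.0164%). The number of calls thus varied with the test.

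Gpr137b (ENSMUSG00000021306, chr13:13357620-13394014, minus strand), which encodes a lysosomal membrane protein that takes part in mTORC1 signalling, was the gene that passed. It had 193, 251 and 301 CPM as the lowest, median and highest value in siRif1 embryos, and 179, 135, 111, 168 and 121 CPM in siCon 1, 2, 4, 5 and 6. The siRif1 and kept siCon embryos did not overlap. The means were 251 ± 26.8 and 143 ± 29.4 CPM (SD), a log2 fold change of 0.81 (SE 0.15, edgeR adjusted p 0.0251). Without siCon 2, siCon 4 or siCon 6 the fold change was 0.80, 0.74 and 0.76 and the edgeR adjusted p 0.0751, 0.128 and 0.298, so the call rested on those controls. Without siCon 5 it was 0.88 with an edgeR adjusted p of 0.0331. With ERCC totals as size factors it was 0.75 and did not pass (edgeR adjusted p 1.00). Gpr137b also did not pass with the 4-cell embryos fitted alone, without a filter on low counts or with the replicate block. The call thus also depended on including the embryos of the later stage in the fit.

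The left-out control siCon 3 had 206 CPM of Gpr137b, above the lowest siRif1 embryo, and siCon 7 had 132 CPM. Gpr137b has a transcribed copy on the same chromosome, Gpr137b-ps (chr13:12615057-12650388), and the counting could split reads between them. Gpr137b-ps had a median of 84.0 CPM in siRif1 and 54.7 CPM in siCon embryos (log2 fold change 0.63, SE 0.19, edgeR adjusted p 0.294). The 2 together summed to 272 to 391 CPM in siRif1 embryos and to 156, 160, 208, 223 and 252 CPM in kept siCon embryos, again with no overlap, and to 312 and 300 CPM in siCon 3 and siCon 7. The sum in the left-out controls thus lay inside the siRif1 range. Gpr137b-ps was chosen after its values were seen. At the 8-cell stage Gpr137b averaged 498 ± 106 CPM in siRif1 and 450 ± 71.0 CPM in siCon embryos (SD), a log2 fold change of 0.15, and the difference between the stages was -0.66 (SE 0.19, edgeR adjusted p 0.576).

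In 5 of 12223 genes every siRif1 embryo was above every kept control (0.0409%), and in 3 every siRif1 embryo was below (0.0245%). The higher genes were Gpr137b, Gorasp2, Polr3e, Neil3 and the processed pseudogene Gm12183, and the lower genes were Slc25a44, Gapdh and 4930402H24Rik. Gorasp2 encodes a Golgi stacking protein and overlaps Tlk1 on the opposite strand, whose reads could not be separated. It had 55.9, 77.2 and 106 CPM in siRif1 embryos, against 48.0, 44.6, 50.1, 46.9 and 47.9 CPM in kept siCon embryos. The fold change of Gorasp2 was 0.76 on the log2 scale (SE 0.17, edgeR adjusted p 0.109). The control values were tight, but siCon 3 had 27.8 CPM and siCon 7 had 59.5 CPM.

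Polr3e, a subunit of RNA polymerase III, had 43.0, 71.6 and 103 CPM in siRif1 embryos, against 38.8, 38.4, 31.9, 34.0 and 41.6 CPM in kept siCon embryos (log2 fold change 0.92, SE 0.21, edgeR adjusted p 0.109). The left-out controls siCon 3 and siCon 7 had 65.7 and 43.4 CPM of Polr3e, both inside the siRif1 range. Neil3, a DNA glycosylase that unhooks interstrand crosslinks, was low throughout, at 2.80 to 9.27 CPM in siRif1 and 0 to 1.91 CPM in kept siCon embryos, with 5.13 CPM in siCon 3, inside the siRif1 range, and 2.34 CPM in siCon 7. Gm12183 had 4.68 to 64.4 CPM in siRif1 embryos and 1.84 to 4.36 CPM in kept siCon embryos, but 143 and 74.6 CPM in siCon 3 and siCon 7. Its log2 fold change of 2.67 (SE 0.59) was -0.74 with all 20 embryos.

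Slc25a44, a mitochondrial carrier of branched-chain amino acids, had 228, 314 and 342 CPM in siRif1 embryos, against 424, 402, 350, 456 and 365 CPM in kept siCon embryos. For Slc25a44 this gave a log2 fold change of -0.41 (SE 0.11, edgeR adjusted p 0.236), and siCon 3 and siCon 7 had 409 and 268 CPM. Gapdh, the glycolytic enzyme, had 16.3, 29.4 and 50.2 CPM in siRif1 embryos, against 54.3, 128, 52.3, 69.9 and 63.4 CPM in kept siCon embryos (log2 fold change -1.24, SE 0.36, edgeR adjusted p 0.255). The left-out controls had 115 and 132 CPM of Gapdh, above the siRif1 range. Its many pseudogenes can take up reads, and the gene overlaps Iffo1 on the opposite strand. The uncharacterised gene 4930402H24Rik had 69.1 to 132 CPM in siRif1 and 133 to 186 CPM in kept siCon embryos (log2 fold change -0.49, SE 0.15), and both left-out controls, at 129 and 96.2 CPM, lay inside the siRif1 range. Gapdh, Neil3 and 4930402H24Rik were chosen after their values were seen.

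**Figure D2:**
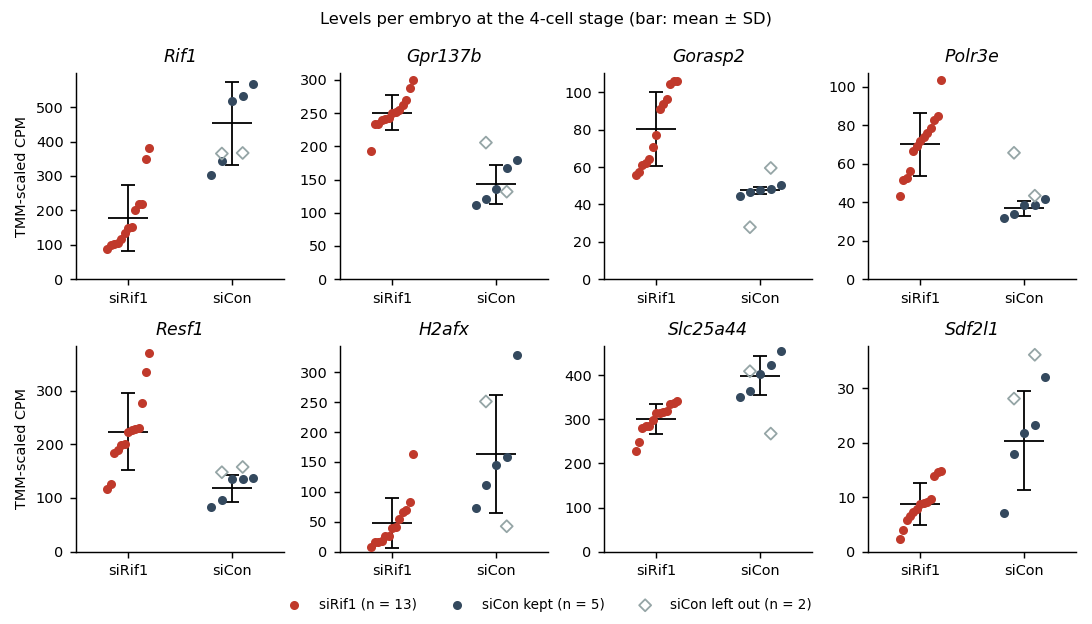
TMM-scaled CPM of 8 genes in each 4-cell embryo, with siRif1 to the left of siCon, where points are embryos, horizontal bars with whiskers are the mean ± SD of the 13 siRif1 and the 5 kept siCon embryos, and open diamonds are the 2 left-out siCon embryos. The siRif1 and kept siCon points do not overlap for Gpr137b, Gorasp2, Polr3e and Slc25a44, while left-out controls fall among the siRif1 points for Gpr137b, Gorasp2, Polr3e and Slc25a44.

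Of the 10 increases with the smallest p, 6 were in genes whose groups overlapped. Cmtm7, a small membrane protein of B cells, had 26.8, 51.8 and 79.4 CPM in siRif1 embryos and 43.6, 16.4, 11.4, 23.0 and 15.5 CPM in kept siCon embryos, a log2 fold change of 1.26 (SE 0.26, edgeR adjusted p 0.0605). siCon 1 was the control inside the siRif1 range. Vnn1, a pantetheinase of coenzyme A turnover, had a log2 fold change of 1.48 (SE 0.34), with 15.9 to 61.3 CPM in siRif1 and 5.98 to 30.3 CPM in kept siCon embryos. Resf1, a regulator of H3K9 methylation and endogenous retrovirus silencing in mouse embryonic stem cells, had 117, 224 and 370 CPM in siRif1 embryos and 136, 137, 96.8, 136 and 82.5 CPM in kept siCon embryos. In 11 of 13 siRif1 embryos it was above every kept control, and it was at 0.93 on the log2 fold change scale (SE 0.22, edgeR adjusted p 0.147).

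Selenof, a selenoprotein of the endoplasmic reticulum, was at 0.74 (SE 0.18) on the log2 fold change scale. Tsfm, a mitochondrial translation elongation factor, was at 1.19 (SE 0.30). Fra10ac1, a nuclear protein, was at 1.16 (SE 0.28), with 9.65 to 30.8 CPM in siRif1 and 5.90 to 11.4 CPM in kept siCon embryos. The left-out controls reached the siRif1 range for both, at 21.5 and 40.5 CPM for Tsfm and 19.2 CPM in siCon 7 for Fra10ac1. None of these 3 passed, with edgeR adjusted p between 0.151 and 0.164.

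H2afx had the smallest p among the decreases after Rif1. It encodes the histone variant H2AX, whose phosphorylated form marks double-strand breaks. The gene (chr9:44334694-44336077, plus strand) overlaps an annotated miRNA gene, Gm44335, on the opposite strand. H2afx had 8.15, 38.8 and 163 CPM in siRif1 embryos, against 158, 73.6, 146, 111 and 329 CPM in kept siCon embryos. In 11 of 13 siRif1 embryos it was below every kept control, and siRif1 7, with 163 CPM, also had the second highest Rif1 level among siRif1 embryos. On the log2 fold change scale H2afx was at -1.74 (SE 0.40, edgeR adjusted p 0.109), and at -2.06 without siRif1 7 (edgeR adjusted p 0.00515). Without siRif1 10, which had the highest Rif1 level, H2afx did not pass. Whether H2afx followed the Rif1 level between embryos was not tested. The left-out control siCon 7, at 42.4 CPM, was close to the siRif1 median. At the 8-cell stage H2afx averaged 77.1 ± 36.3 CPM in siRif1 and 134 ± 30.3 CPM in siCon embryos (SD), a log2 fold change of -0.80.

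The other decreases came from several functions. Tardbp, an RNA-binding protein also known as TDP-43, had 220, 258 and 351 CPM in siRif1 embryos and 305, 365, 391, 359 and 490 CPM in kept siCon embryos, with 11 of 13 siRif1 embryos below every control. Its log2 fold change was -0.51 (SE 0.13), and siCon 3 and siCon 7, at 240 and 185 CPM, lay in or below the siRif1 range. Sdf2l1, a chaperone cofactor of the endoplasmic reticulum, had 2.38, 8.64 and 14.9 CPM in siRif1 embryos and 7.02, 32.0, 23.2, 17.9 and 21.7 CPM in kept siCon embryos. Both left-out controls were also high, at 28.1 and 36.1 CPM, and siCon 1 was the low control. The log2 fold change of Sdf2l1 was -1.21 (SE 0.31, edgeR adjusted p 0.164), and without siCon 1 it was -1.43 (edgeR adjusted p 0.0447). Cep76, a centrosomal protein, was at -0.83 (SE 0.22) on the log2 fold change scale, Tubg2, a gamma-tubulin, at -1.53 (SE 0.42), and Prdx2, a peroxiredoxin, at -0.98 (SE 0.26). Ptdss1, a phosphatidylserine synthase, was at -0.56 (SE 0.16). The uncharacterised gene D030056L22Rik was at -0.86 (SE 0.20), but in siCon 1 it had 79.0 CPM, below the siRif1 median of 92.6 CPM. These genes did not pass, with edgeR adjusted p from 0.109 to 0.236.

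**Figure D3:**
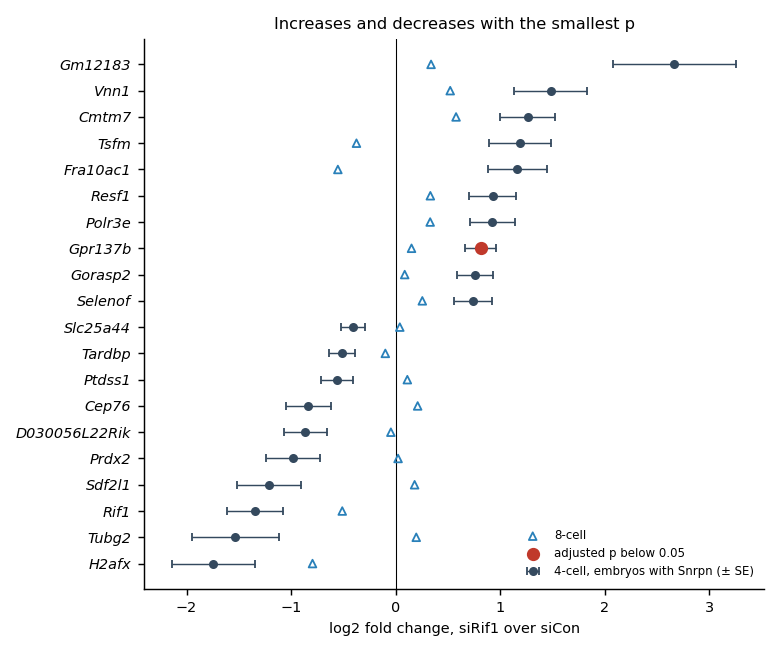
log2 fold change of siRif1 over siCon with its SE (filled circles, 13 siRif1 and 5 siCon embryos of the 4-cell stage) and the 8-cell value (open triangles, 12 siRif1 and 8 siCon embryos) for the 10 increases and 10 decreases with the smallest p, Rif1 among them. Gpr137b alone has an adjusted p below 0.05, and the 8-cell values of Rif1 and H2afx, at -0.51 and -0.80, are on the same side of 0 as their 4-cell values.

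None of the 12223 genes differed between the stages in their response to siRif1 at an edgeR adjusted p of 0.05, while 653 had an unadjusted p below 0.05 (5.34%) and DESeq2 called 1, Fra10ac1. The difference of Fra10ac1, 8-cell minus 4-cell, was -1.72 by edgeR (unadjusted p 2.2e-05) and also -1.72 by DESeq2 (adjusted p 0.0198). Its 4-cell log2 fold change of 1.16 stood beside -0.55 at the 8-cell stage. The next smallest p belonged to Dele1, F11r, Chd6 and R3hdm4. F11r, the tight junction protein JAM-A, had a log2 fold change of -0.56 (SE 0.17) at the 4-cell stage and 0.43 at the 8-cell stage. Dele1, which relays mitochondrial stress to translation, had 1.77 (SE 0.45) and -0.72 at the same stages, from a median level of 4.44 CPM in siRif1 and levels of 0.460 to 3.22 CPM in kept siCon 4-cell embryos. Chd6, a chromatin remodeller, had 1.66 (SE 0.42) and -0.58, and R3hdm4 had 1.00 (SE 0.30) and -0.64.

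Gene lists were read against the background of 4.53% of tested genes higher and 2.57% lower at an unadjusted p below 0.05, and against a median log2 fold change of 0.01 over all genes. In the Rif1 partners of break repair and replication timing, 1 of 15 tested genes was higher and 1 lower, and the lower one was Rif1 itself. The higher one, Shld1, a shieldin subunit that protects broken ends, had 0 to 11.6 CPM in siRif1 and 2.73 to 7.00 CPM in kept siCon embryos, a log2 fold change of 0.84 (SE 0.37). The catalytic phosphatase subunits Ppp1ca, Ppp1cb and Ppp1cc were at -0.08, -0.22 and -0.10 (SE 0.14, 0.26 and 0.23) on the log2 fold change scale. None of the 15 passed the adjusted threshold.

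No replication gene passed the adjusted threshold. In origin licensing, 1 of 16 tested genes was higher and 1 lower, with a median log2 fold change of -0.10. Orc6, the smallest subunit of the origin recognition complex, had 74.4, 93.8 and 164 CPM in siRif1 embryos and 199, 138, 117, 108 and 146 CPM in kept siCon embryos, a log2 fold change of -0.52 (SE 0.19), and 11 of 13 siRif1 embryos were below every kept control. Orc4, another subunit, was at 0.64 (SE 0.27). Among 16 origin firing factors, which Rif1 and its phosphatase oppose at the protein level, none had a p below 0.05 and the median was -0.09. Cdc45, a part of the replicative helicase, was at -0.39 (SE 0.22). Among 28 genes of the replication fork and nucleotide supply, 2 were higher and 1 lower, which were the clamp loader Rfc3 at 1.01 (SE 0.33), the ligase Lig1 at 0.73 (SE 0.27) and the fork protection factor Tipin at -0.43 (SE 0.14).

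Of 47 tested genes of double-strand break repair and checkpoint signalling, none was higher and 2 were lower, H2afx and Fancm. Fancm, a DNA translocase of the Fanconi pathway, had a log2 fold change of -0.37 (SE 0.15), with 131 to 188 CPM in siRif1 and 127 to 239 CPM in kept siCon embryos. The checkpoint kinase Chek1 was at -0.29 (SE 0.19). Of 28 tested p53 targets 3 were higher and 2 lower, with a median of 0.04. The higher ones were Perp, a desmosomal protein, at 2.18 (SE 0.83), Zmat3, a splicing regulator, at 1.30 (SE 0.60), and Sesn1, an inhibitor of mTORC1, at 0.86 (SE 0.36). Tigar, a regulator of glycolysis, at -0.45 (SE 0.17), and Sertad1, at -0.60 (SE 0.22), were the lower ones. Perp was at 0 to 20.1 CPM in siRif1 and 0 to 2.45 CPM in kept siCon embryos, so its fold change rests on few reads.

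The p53 target Cdkn1a, the cell cycle inhibitor p21, was among the 6 well expressed genes that varied most between siRif1 embryos. It ran from 12.6 through a median of 81.3 to 323 CPM in siRif1 embryos and was 42.1, 61.0, 98.4, 51.0 and 73.0 CPM in kept siCon embryos. Its SD on the log2 CPM scale was 1.31 among siRif1 and 0.47 among kept siCon embryos, and 5 siRif1 embryos lay above and 5 below every kept control. These 6 genes were chosen for their spread among siRif1 embryos, so such values cannot show that the spread differed between the groups. The others were Zbed3, Aurkc, a germ-line Aurora kinase, Cds2, a phosphatidylinositol synthesis enzyme, and the X-linked genes Atp6ap1, a proton pump subunit, and Timm8a1, a mitochondrial import factor. Atp6ap1 had 5.76, 166 and 265 CPM in siRif1 embryos and 110 to 184 CPM in kept siCon embryos. The lowest Atp6ap1 value was in siRif1 5, the library with the fewest counts, and the part of depth in this spread was not tested. Y-linked transcripts summed to 10 CPM or more in 7 of 13 siRif1 and 3 of 5 kept siCon embryos, and Xist reached 10 CPM in 6 of 13 and 2 of 5.

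Maternal oocyte transcripts had the lowest median log2 fold change among the lists with at least 10 tested genes, -0.36. Of 37 tested members 31 were below 0, whereas 51.6% of all genes tested were above 0. An unadjusted p below 0.05 was found for 5 lower members, Padi6, Oog3, Bmp15, Omt2a and Nlrp4f, and for 1 higher member, Cnot7. Padi6, a protein of the oocyte cytoplasmic lattices, had 18.0, 40.9 and 61.3 CPM in siRif1 embryos and 39.5, 46.2, 63.8, 92.9 and 104 CPM in kept siCon embryos. Padi6 was at -0.72 on the log2 fold change scale (SE 0.25, edgeR adjusted p 0.461). Bmp15, an oocyte growth factor, was at -0.92 (SE 0.41), Oog3 at -0.90 (SE 0.38), Nlrp4f at -0.85 (SE 0.41) and Omt2a at -0.47 (SE 0.23). Cnot7, a deadenylase subunit, was at 0.49 (SE 0.19).

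The summed level of this list overlapped between the groups. Maternal oocyte transcripts summed to 2822 to 4135 CPM in siRif1 and 2922 to 3910 CPM in kept siCon embryos, and to 5064 and 6428 CPM in siCon 3 and siCon 7. In the kept embryos the largest part of this sum was Dppa3, with means of 2416 CPM in siRif1 and 2104 CPM in siCon. Dppa3 was at 0.20 (SE 0.17) on the log2 fold change scale, unlike most members, so the overlap of the sums says little about the others. Without siCon 6, none of the 37 members was lower at an unadjusted p below 0.05 (1.93% of all genes in that fit), and without siCon 1, 10 were (3.27% of all genes). The list's median was -0.25 without siCon 5 and -0.50 without siCon 1. With all 20 embryos it was -0.79, with 17 of 36 tested members lower, in a fit where 6.80% of all genes were lower at an unadjusted p below 0.05. At the 8-cell stage the median was 0.12.

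Among 2-cell and Zscan4 genes, which mouse embryonic stem cells depleted of Rif1 are known to derepress, none of 17 tested members had a p below 0.05, and the median log2 fold change was 0.34. Tcstv1 had 0, 2.96 and 51.4 CPM in siRif1 embryos and 0 to 9.20 CPM in kept siCon embryos, a log2 fold change of 1.99 (SE 1.17). Zscan4d was the only Zscan4 gene tested. It was at -0.79 (SE 1.00), with means of 2.64 CPM in siRif1 and 4.82 CPM in kept siCon embryos. The list rested on siCon 5 in part, since without it the median was 1.01 and 4 members were higher at an unadjusted p below 0.05, against 5.18% of all genes. It also rested on the choice of controls. With all 20 embryos its median was -0.60 with 6 members lower (6.80% of all genes), and the summed level was 128 to 426 CPM in siRif1, 137 to 387 CPM in kept siCon and 1012 and 456 CPM in the left-out embryos.

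No lineage gene passed the adjusted threshold. None of 23 pluripotency genes had a p below 0.05, with Pou5f1, the core factor Oct4, at 14.4 to 62.2 CPM in siRif1 and 25.6 to 56.1 CPM in kept siCon embryos. Of 32 tested genes of the trophectoderm and of compaction, 2 were higher and 1 lower. Prkci, the polarity kinase, was at 1.02 (SE 0.32) on the log2 fold change scale, Cdh1, the E-cadherin of compaction, at 0.42 (SE 0.20), and Nf2, a Hippo pathway activator, at -0.46 (SE 0.16). In 12 of 13 siRif1 embryos Nf2 was below every kept control, with 130 to 273 CPM in siRif1 and 266 to 344 CPM in kept siCon embryos, although siCon 7 had 125 CPM. Of 10 tested primitive endoderm genes, 2 were higher and 1 lower. Pdgfa, a growth factor, had 0, 9.00 and 21.1 CPM in siRif1 embryos and 1.85, 3.49, 0.818, 2.30 and 0.369 CPM in kept siCon embryos, which was 2.51 on the log2 fold change scale (SE 0.63, edgeR adjusted p 0.164). Its receptor Pdgfra, at -1.62 (SE 0.77), had 0 to 4.68 CPM in siRif1 and 1.34 to 10.1 CPM in kept siCon embryos, and Lamb1, a laminin chain, was at 0.91 (SE 0.41).

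In H3K9 methylation and retroelement silencing, 2 of 31 tested genes were higher and 1 lower. These were Resf1, the heterochromatin protein Cbx1, at 0.88 (SE 0.33), and the methyltransferase Suv39h1, at -0.77 (SE 0.34). Of 27 Polycomb genes, Jarid2, a cofactor of the H3K27 methyltransferase complex, was at 0.76 (SE 0.22, edgeR adjusted p 0.255), with 95.6, 161 and 216 CPM in siRif1 embryos and 161, 80.9, 67.6, 80.5 and 69.7 CPM in kept siCon embryos. siCon 1 was the control inside the siRif1 range, and without it the edgeR adjusted p was 0.0447 at a log2 fold change of 1.06. Pcgf2, the other Polycomb gene with a p below 0.05, was at -1.78 through 14.3 CPM in siCon 5, and without that embryo it was at 0.46. Of 17 tested histone variant and chaperone genes H2afx alone had a p below 0.05. H2afz, the variant H2A.Z, was at 0.31 (SE 0.17).

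No gene of the secretory pathway passed the adjusted threshold. Of 24 tested endoplasmic reticulum chaperone and unfolded protein response genes, 3 were lower and none higher, which were Sdf2l1, Dnajb9, a co-chaperone, at -0.51 (SE 0.21), and Trib3, a stress-induced pseudokinase, at -0.74 (SE 0.35). The list's median was -0.05. Of 20 Golgi structure and KDEL receptor genes, 2 were higher and none lower, Gorasp2 and Kdelr3, and 17 of 20 were above 0 with a median of 0.15. Over all genes tested, 51.6% were above 0. Kdelr3, a receptor that returns chaperones to the endoplasmic reticulum, was at 1.23 (SE 0.38), with 3.11 to 21.7 CPM in siRif1 and 0.369 to 6.90 CPM in kept siCon embryos.

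**Figure D4:**
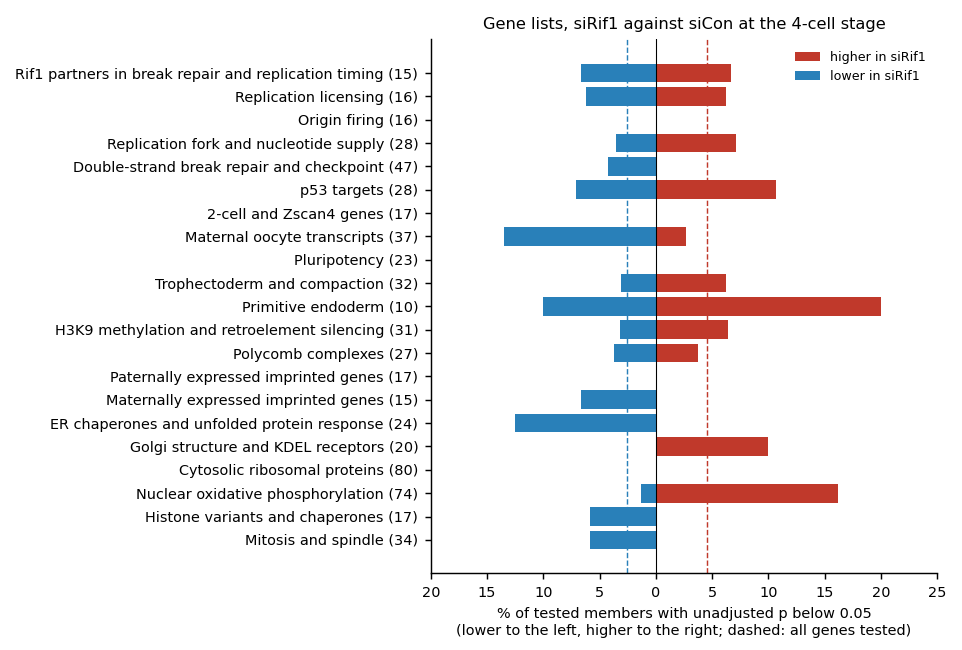
Percent of tested members of each gene list with an unadjusted p below 0.05, lower in siRif1 embryos to the left and higher to the right, with the number tested in brackets and dashed lines at the 2.57% and 4.53% of all genes. Nuclear oxidative phosphorylation has 12 higher and 1 lower of 74, and maternal oocyte transcripts have 1 higher and 5 lower of 37.

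Nuclear genes of oxidative phosphorylation had 12 of 74 tested members higher and 1 lower, with a median log2 fold change of 0.12. Split by respiratory complex after these values were seen, 9 of the 12 belonged to complex I, the NADH dehydrogenase, where 9 of 35 were higher, 1 was lower and the median was 0.26. Ndufa5 had 8.33, 18.0 and 29.9 CPM in siRif1 embryos and 5.54, 12.1, 10.6, 14.7 and 13.6 CPM in kept siCon embryos, a log2 fold change of 0.72 (SE 0.25). Ndufb8 was at 0.76 (SE 0.29), Ndufa8 at 0.54 (SE 0.19) and Ndufa3, the lower one, at -0.61 (SE 0.29). Outside complex I, Sdhb, the iron-sulphur subunit of complex II, had the smallest p of the list. Sdhb had 19.3, 30.2 and 51.3 CPM in siRif1 embryos, against 11.1, 24.2, 25.9, 12.0 and 18.8 CPM in kept siCon embryos, and 46.4 and 45.0 CPM in siCon 3 and siCon 7. Sdhb was at 0.83 on the log2 fold change scale (SE 0.23, edgeR adjusted p 0.236). Uqcrq of complex III was at 0.50 (SE 0.18) and Cox4i1 of complex IV at 0.28 (SE 0.13).

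These counts moved in both directions with the controls, the test and the scaling. Without siCon 2, 13 of 74 were higher (609 of 12587 over all genes), and 11 of 35 in complex I. Without siCon 4 they were 10 of 74 and 7 of 35 (576 of 12600 over all genes). By DESeq2 they were 13 of 74 and 10 of 35 (688 of 12222 over all genes). With no Snrpn minimum they were 14 of 74 and 8 of 35 (515 of 11844 over all genes). Without siCon 5, which had the highest mitochondrial share, 6 of 74 were higher (5.18% of all genes tested in that fit), with a median of 0.03, and in complex I 4 of 35 were higher, with a median of 0.22. Without siCon 6, 7 of 74 were higher (3.58% of all genes), and in complex I 3 of 35 were, with a median of 0.17. Without siCon 1, 8 of 74 were higher (5.12% of all genes), and in complex I 5 of 35 were. With the 4-cell embryos fitted alone, 5 of 74 and 3 of 35 were higher (3.35% of all genes). Leaving out siRif1 1 also brought the list to 8 higher members of 74, and 6 of 35 in complex I (566 of 12178 over all genes). With ERCC totals as size factors none of the 74 had a p below 0.05, in a fit where 267 of all 12223 genes were higher and 59 lower. The median of the 74 was then 0.00 and that of complex I 0.12, beside -0.03 over all genes. At the 8-cell stage the median over the 74 genes was -0.10, and 10 of them had an unadjusted p below 0.05 for the difference between the stages, against 5.34% of all genes. Cytosolic ribosomal protein genes, with none of 80 at a p below 0.05, had a median of -0.03.

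**Figure D5:**
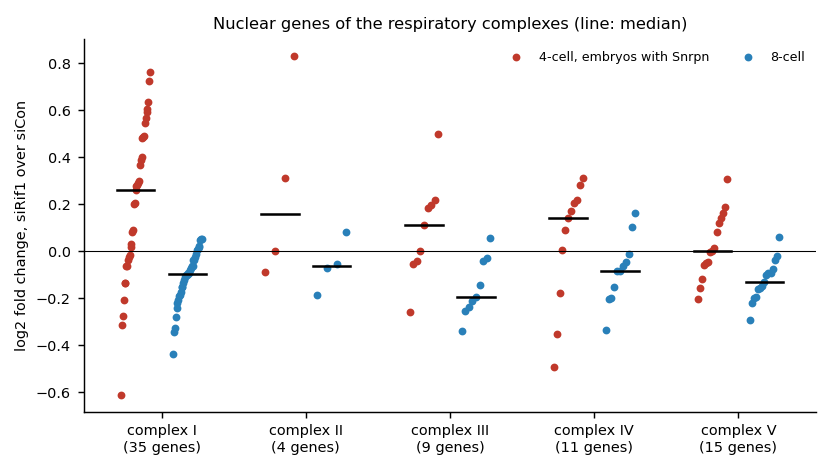
log2 fold change of siRif1 over siCon for the tested nuclear genes of each respiratory complex at the 4-cell stage (embryos with Snrpn) and at the 8-cell stage, where each point is 1 gene and black lines are medians. The complex I median is 0.26 at the 4-cell stage and -0.10 at the 8-cell stage.

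Restoring siCon 3 and siCon 7 changed which genes passed. With all 20 embryos of the 4-cell stage edgeR called 67 genes, 15 higher (0.127%) and 52 lower (0.439%). All 15 higher genes had the same sign in the 18 embryos with Snrpn and an unadjusted p below 0.05 there, beside 4.53% of all genes tested. Their median log2 fold change was 1.34 in the 18 embryos beside 1.68 in the 20. The 15 were called in a fit that included these 18 embryos, so their agreement follows in large part from the choice of genes and is no support. Pax6, a transcription factor of eye and brain, had 1.88 to 37.5 CPM in siRif1 and 1.36 to 10.5 CPM in kept siCon embryos, a log2 fold change of 1.84 (SE 0.56), and was at 0 in both left-out controls. Mtx2, a mitochondrial outer membrane protein, was at 0.60 (SE 0.19).

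Of the 52 lower genes, 43 had the same sign in the 18 embryos and 15 an unadjusted p below 0.05, and the median log2 fold change was -0.53 in the 18 beside -1.86 in the 20. In 40 of the 52, siCon 3 and siCon 7 were both above every kept control. The 52 were called in a fit that included these 2 embryos, so that count follows in part from the choice of genes. No count over all genes stands beside it. Zbed3, an oocyte protein of the subcortical maternal complex, had 14.0, 63.0 and 224 CPM in siRif1 embryos and 24.7, 44.6, 102, 373 and 364 CPM in kept siCon embryos, but 956 and 2295 CPM in the left-out controls. The processed pseudogene Gm5435 had 2.25 to 22.4 CPM in siRif1 and 5.53 to 12.2 CPM in kept siCon embryos, against 272 and 190 CPM. Its log2 fold change was 0.34 in the 18 embryos and -2.75 in the 20. Wee2, an oocyte kinase that holds meiosis, was at -0.91 (SE 0.52) in the 18, and Pkd2l2 was at -1.17 (SE 0.42). The sets of 18 and 20 embryos share 18 embryos, so the 2 results are not independent.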

How the data were processed

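The deposited data are raw gene counts of 40 single embryos, which the authors made with STAR 2.7.6a on GRCm38 per the submitters' processing notes. The unstranded counts of 55487 mouse gene entries were used. Spike-in and summary entries were left out, and symbols and positions came from GENCODE M21. Embryos were grouped by their labels and selected by Snrpn. Genes kept by filterByExpr (minimum count 10) were tested with edgeR 4.0.16, with TMM scaling and a robust quasi-likelihood fit of 38 embryos (18 of the 4-cell and 20 of the 8-cell stage, 1 coefficient per group), and p-values were adjusted by Benjamini-Hochberg over all genes tested, with a threshold of 0.05. Alternatives used DESeq2 1.42.0, limma 3.58.1, other scalings and filters, a replicate block, the 4-cell embryos alone, all 20 embryos, and embryos left out in turn. The procedure was tested on simulated counts. The comparison, the gene lists and the naming rule were chosen with earlier results of these data known. The rule took Rif1, genes that passed, the 10 increases and 10 decreases with the smallest p and a mean log2 CPM of at least 3, 5 genes by stage difference, up to 2 members per list, calls of the fit with all 20 embryos and the 6 most variable genes. Other list members given with values were chosen after their values were seen. Depth was 704863 to 8890551 counts per kept embryo.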

Additional observations from a re-analysis of the deposited data

Results flagged for a closer look

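Among 87 sets of values examined, each a gene or library measure in the same 5 kept siCon embryos, 11 held an embryo far from the others. Chance gives about 1 in 20 for a single set. The sets share their embryos and some measures are related, so the 11 of 87 cannot be judged against that rate. siCon 5 was such an embryo in 4 library measures, with 7.65% mitochondrial counts, 7.18% ERCC counts, 47.8% of counts in the 50 most abundant genes and a log2 ratio of mouse gene to ERCC counts of 3.69. It was also high in Pcgf2, at 14.3 CPM. siCon 1 was high in Jarid2, at 161 CPM, and in Trib3, at 34.7 CPM. siCon 6 was high in Oog3, at 86.6 CPM, and low in Kdelr3, at 0.369 CPM. siCon 2 was high in Gapdh, at 128 CPM, and siCon 4 in Chd6, at 5.45 CPM.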

How the results depend on the processing

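The count of genes past the threshold, 1 with edgeR and TMM, was 0 with ERCC totals (326 at an unadjusted p below 0.05), 0 without a filter on low counts (3073 of 34916), 0 with the 4-cell embryos alone (611), 2 without robust dispersion, 4 with limma-voom, 45 with DESeq2 and 67 with no Snrpn minimum. With 1 embryo left out it ranged from 0 to 12, with 12 without siCon 1, 0 without siCon 2, siCon 4 or siCon 6, 4 without siRif1 6 or siRif1 7, 3 without siRif1 10 and 2 without siRif1 12. The Rif1 log2 fold change passed with DESeq2 (-1.35), limma-voom (-1.38), no Snrpn minimum (-1.27) and no robust dispersion (-1.35), and ranged from -1.50 to -1.25 with 1 embryo left out. The stage difference, with no call by edgeR, had 1 by DESeq2. The log2 ratio of mouse gene to ERCC counts, siRif1 minus siCon, was -0.05, and 0.17 with no Snrpn minimum, and ranged from -0.39 (without siCon 5) to 0.087 (without siCon 1) with 1 embryo left out. Gm12183 reversed to -0.74 and Gm5435 to -2.75 with no Snrpn minimum, and Pcgf2 to 0.46 without siCon 5 (range -2.18 to 0.46 with 1 embryo left out). Across the other named genes 3009 values kept their direction and side of the threshold, 54 passed where they had not and 7 no longer passed. The cause of these changes was not tested.

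The correlations of same-numbered siRif1 and siCon embryos ran from -0.12 to 0.15, and 1 of 5 siCon embryos correlated best with its own number. These 5 correlations of single embryos cannot tell whether a number marks a shared litter or injection day. The replicate block gave 4 calls (Rif1 at -1.36, Pdgfa, Vnn1 and H2afx). The effect of depth on these values was not tested.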
